A study of Mus musculus with 6 samples.

Results

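The genes of the receptors for interleukin-6, IL-10, IL-21, IL-4 and IL-7, with the signalling genes Stat3, Stat6 and Socs3, were followed in 2 subsets of mouse natural killer (NK) cells. These 10 genes were taken from the authors' deposited table by their gene symbols, and all 10 were found among 21442 genes with values on the arrays. They comprised 7 receptor chains (Il6st, Il6ra, Il10ra, Il10rb, Il21r, Il4ra and Il7r), the transcription factors Stat3 and Stat6, and the feedback inhibitor Socs3. Together they were covered by 138 exon-level probe sets in 11 transcript clusters, since Socs3 had 2 clusters on the array.

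The cells were spleen cells of C57BL/6 mice from which T cells had been removed with anti-Thy1.2 antibody and complement, and every group was then grown for 7 days in 1000 IU of interleukin-2. Sorting on CD3-negative, CD122-positive cells gave Ly49C/I+ cells, which lack Ly49G2, and Ly49G2+ cells, which lack Ly49C and Ly49I. RNA of each subset was hybridised to 3 arrays. The labels name neither separate mice nor separate cultures, so the p-values below cover no more than the scatter of these 6 arrays, part or all of which may be technical. The strain field of the labels reads C57BL/5, and the age and sex of the mice are not stated.

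NK cells grown in IL-2 receive their main signal through CD122 and the common gamma chain. The receptors described here add further signals by the same scheme: a ligand joins receptor chains, the Janus kinases bound to the chains phosphorylate them, and STAT proteins dock, are phosphorylated and move to the nucleus. IL-6, IL-10 and IL-21 act mainly through STAT3, IL-4 acts through STAT6, and IL-7 acts through STAT5. SOCS3 is induced by STAT3 and binds gp130, the product of Il6st, to dampen the signal.

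The arrays were alike in overall level, with median signals from 7.73 to 7.75 and lower quartiles from 5.82 to 5.86 on the log2 scale over all probe sets. For Ly49G2+ replicate 1 the title and description give this subset but the source field gives Ly49C/I+. Its signals of Klra9 and Klra3, the genes of Ly49I and Ly49C, were 9.78 and 10.02, near those of the other Ly49G2+ arrays (9.46 and 9.78 for Klra9, 9.89 and 10.16 for Klra3) and below the lowest Ly49C/I+ values of 11.48 and 10.80. Ly49G2+ replicate 2 received the lowest array weight, 0.433, against 0.867 to 1.70 for the other arrays. Both arrays were kept. Values without each are given for the genes without overlap among the 10, for Il7r and for the passing genes of the lists whose call no single array decided. NK markers had high signals in both subsets, such as Ncr1 (means of 12.63 for Ly49C/I+ and 12.56 for Ly49G2+ arrays), and of 12 such markers only Klrk1 passed the test (higher in Ly49C/I+ cells). Of all genes, 6.16% passed toward Ly49C/I+ and 3.72% toward Ly49G2+ cells in the test described below. Of 17 markers of T cells, 1 (Ubash3a) passed toward Ly49C/I+ cells and 4 toward Ly49G2+ cells, which are set beside the results below. Elsewhere, 1 of 10 B cell markers was higher in Ly49C/I+ cells, 1 of 12 macrophage and monocyte markers, 1 of 8 neutrophil markers and 3 of 10 markers of other innate lymphoid cells were higher in Ly49G2+ cells, and 0 of 11 dendritic cell markers passed the limma test in either direction (3 at an unadjusted limma p under 0.05 and 4 in the authors' deposited table at the same unadjusted threshold).

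STAT dimers bind DNA at palindromes of the form TTCNNNGAA, and STAT6 prefers a longer spacing, with 4 bases of any kind between TTC and GAA. RefSeq promoter windows of build GRCm38.p6, from 250 bases before to 50 after each annotated start, were matched by symbol for 8 of the 10 genes, all but Il10ra and Il10rb. These letters read the same on the opposite strand, so a search of either strand covers both, and matches of the shorter and the longer form may overlap each other. TTCNNNGAA was found in the windows of 2 of the 8 genes, Socs3 and Il7r, and in 8.3% of 32851 windows of all genes. The longer form was found in 0 of the 8 and in 6.95% of all windows. These 2 matches, the only ones in the 8 windows, are shown with the motif in capitals and 30 bases on each side, on the minus strand of each chromosome.
Socs3, chr11:117969482-117969550: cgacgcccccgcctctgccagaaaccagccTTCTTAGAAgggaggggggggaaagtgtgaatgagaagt
Il7r, chr15:9529980-9530048: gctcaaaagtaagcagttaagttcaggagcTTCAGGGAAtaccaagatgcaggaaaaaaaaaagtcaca
The motif begins 154 bases before the start of Socs3 and 142 before that of Il7r. The window of Il6st holds neither form.

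Which of these receptor and signalling genes differ between the subsets was asked with limma, a linear model with moderated variances fitted to all 21442 genes, and a gene passed at a Benjamini-Hochberg adjusted p under 0.05. Of the 10 genes, only Il6st passed, and it was higher in Ly49G2+ cells. Of all genes, 9.88% passed in either direction and 3.72% toward Ly49G2+ cells, and 0 of the 10 passed toward Ly49C/I+ cells, where the share of all genes was 6.16%. Without the adjustment, 4 of the 10 genes had a limma p under 0.05, all of them with higher means in Ly49G2+ cells, where 10.7% of all genes had such a value (23.0% in either direction). In 3 of the 10 the lowest Ly49G2+ array exceeded the highest Ly49C/I+ array, as it did in 13.5% of all genes (27.8% were without overlap in either direction). The median difference of the 10 genes, Ly49C/I+ minus Ly49G2+, was -0.07 on the log2 scale, beside -0.01 over all genes, and 8 of the 10 had a negative difference, as did 54.4% of all genes.

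**Figure D1:**
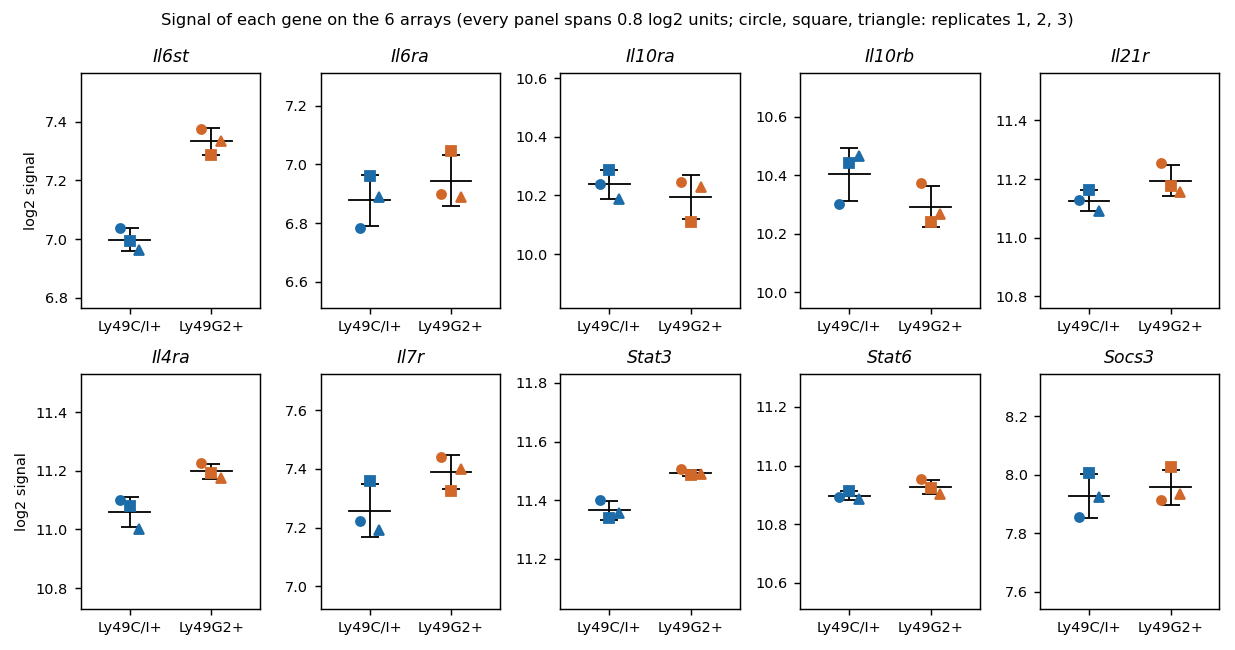
Log2 signal of each of the 10 genes (y axis, averaged over its probe sets) on the 3 Ly49C/I+ arrays (blue) and the 3 Ly49G2+ arrays (orange). Horizontal lines are group means and bars the SD (n = 3), and every panel spans the same range of log2 signal. The groups are apart for Il6st, Il4ra and Stat3, and the gap is widest for Il6st.

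Among the chains that bind ligands of the IL-6 family, Il6st encodes gp130, the signalling chain shared by the receptors of IL-6, IL-11, leukaemia inhibitory factor (LIF), oncostatin M and others. Its log2 signal was 7.04, 6.99 and 6.96 on Ly49C/I+ arrays 1 to 3 and 7.38, 7.29 and 7.34 on Ly49G2+ arrays 1 to 3. All 3 Ly49G2+ arrays were thus above all 3 Ly49C/I+ arrays, with a narrow spread in each group. The means were 7.00 ± 0.039 and 7.33 ± 0.045 (SD, n = 3), a log2 difference of -0.33 ± 0.046 (SE), or 1.26-fold more in Ly49G2+ cells, with limma adjusted p = 0.00149. The exact permutation p (two-sided) was 0.1, the smallest that 3 against 3 arrays allow. Of all genes, 0.928% had a difference at least as far toward Ly49G2+ cells. Without Ly49G2+ replicate 1 the log2 difference was -0.31 (limma adjusted p = 0.00831), and without Ly49G2+ replicate 2 it was -0.36 (limma adjusted p = 0.00207).

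The size and the call of Il6st rested on how its 18 probe sets were combined. The authors' deposited table gives Il6st a ratio of 0.864 (Ly49C/I+ over Ly49G2+), a log2 difference of -0.21, with an unadjusted p of 0.0253 that became 0.166 when adjusted over the named rows of that table. With the median of the probe sets the log2 difference was -0.36 (limma adjusted p = 0.0754). With the brightest probe set alone it was -0.13 (limma adjusted p = 0.619). The call also held without the dim probe sets, where the log2 difference was -0.39.

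Il6st was lower in Ly49C/I+ cells at 16 of its 18 probe sets, equal at 1 and higher at 1. Taken by themselves, none of the 18 passed limma across all 241383 probe sets, of which 0.0261% passed in either direction and 0.0133% toward Ly49G2+ cells. An unadjusted limma p under 0.05 was found at 6 of the 18 and at 12.6% of all probe sets. At 5 of them the Ly49G2+ arrays all exceeded the Ly49C/I+ arrays, which was so at 8.47% of all probe sets (18.8% were without overlap in either direction). These were, in order of ID, numbers 2, 7, 9, 15 and 16, with log2 differences of -0.62, -0.75, -0.84, -0.63 and -1.06. Number 15 had the lowest adjusted p of the gene, 0.0967 by limma. Its log2 signals were 7.42, 7.58 and 7.27 in Ly49C/I+ cells against 7.98, 8.09 and 8.08 in Ly49G2+ cells. At number 16 the Ly49C/I+ arrays were uneven, with 7.39, 5.77 and 7.11 against 8.13, 7.77 and 7.54. The 9 brighter probe sets of Il6st averaged a log2 difference of -0.22 and the 9 dimmer ones -0.45, and 8 of 9 were negative in each set. On every array, 2 of the 18 lay below the lower quartile of all probe sets.

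**Figure D2:**
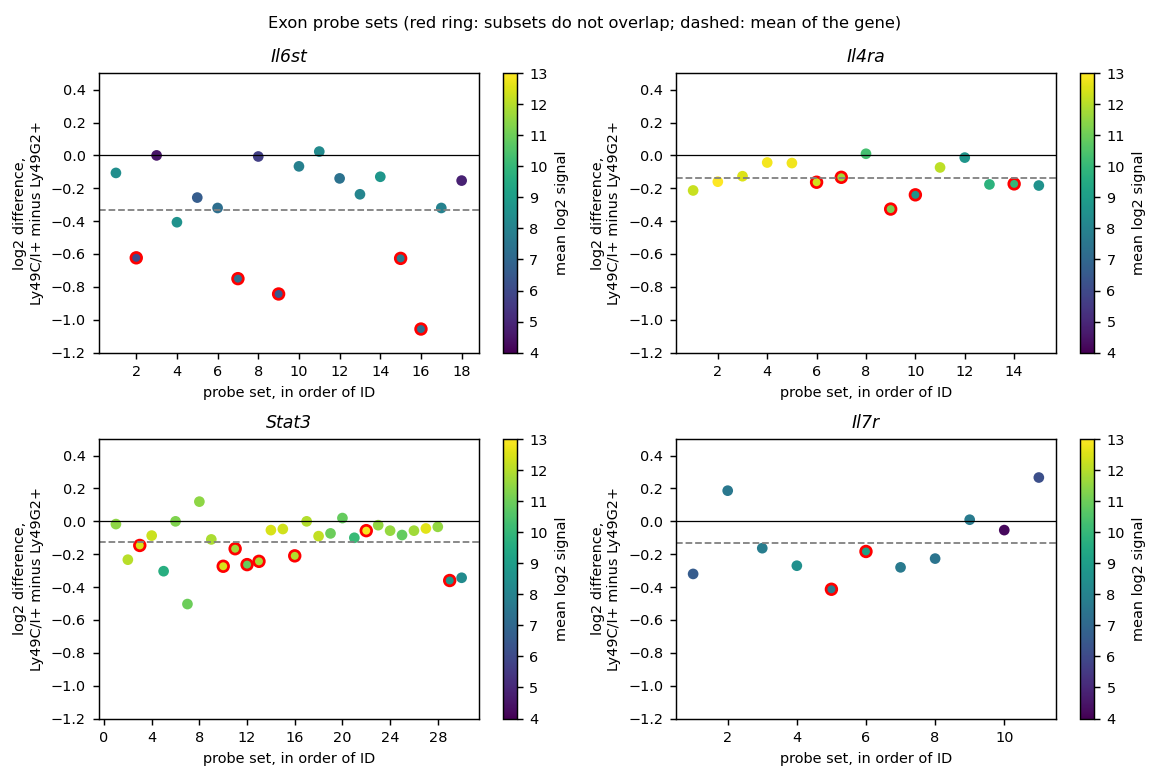
Log2 difference, Ly49C/I+ minus Ly49G2+ (y axis), at each exon probe set in order of ID (x axis) for Il6st, Il4ra, Stat3 and Il7r. Colour gives the mean log2 signal, a red ring marks probe sets whose 3 arrays per subset do not overlap, and the dashed line is the mean of the gene. Most points lie below 0, and in Il6st the 5 ringed ones, from -0.62 to -1.06, lie apart from the rest.

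Il6ra encodes the chain that binds IL-6 itself and then joins gp130. Its log2 signal was 6.78, 6.96 and 6.89 on the Ly49C/I+ arrays and 6.90, 7.05 and 6.89 on the Ly49G2+ arrays, so the groups overlapped. The log2 difference was -0.07 ± 0.061 (SE, limma adjusted p = 0.580), with a 95% interval from -0.20 to 0.07. Its 10 probe sets went both ways, 6 lower and 4 higher in Ly49C/I+ cells, with log2 differences from -0.47 to 0.49.

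Il10ra and Il10rb encode the chains of the IL-10 receptor. IL10RA binds IL-10, and IL10RB is shared with the receptors of IL-22 and the type III interferons. These were the only genes of the 10 with higher means in Ly49C/I+ cells, and neither passed. Il10ra had log2 signals of 10.24, 10.29 and 10.19 in Ly49C/I+ cells against 10.25, 10.11 and 10.23 in Ly49G2+ cells. The groups overlapped, and their log2 difference was 0.04 ± 0.052 (SE, limma adjusted p = 0.693) and a 95% interval from -0.07 to 0.16. Il10rb had log2 signals of 10.30, 10.44 and 10.46 in Ly49C/I+ cells against 10.37, 10.24 and 10.27 in Ly49G2+ cells. Here Ly49C/I+ replicate 1 fell within the range of the Ly49G2+ arrays, and the log2 difference was 0.11 ± 0.058 (SE, limma adjusted p = 0.307), with a 95% interval from -0.02 to 0.24. Most of that value came from 1 of its 7 probe sets, the seventh, which was dim (mean log2 signal 6.75) and had a log2 difference of 0.61. The other 6 ranged from -0.05 to 0.09, and the authors' deposited table gives Il10rb a ratio of 1.01.

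Il4ra and Il21r, which are neighbouring genes on chromosome 7, encode the ligand-binding chains for IL-4 (and, with a second chain, IL-13) and for IL-21. Il4ra had log2 signals of 11.10, 11.08 and 11.00 in Ly49C/I+ cells against 11.23, 11.19 and 11.17 in Ly49G2+ cells. The Ly49G2+ arrays were again all higher, but by little: the log2 difference was -0.14 ± 0.045 (SE), with an unadjusted limma p of 0.0131 and an adjusted p of 0.0947. It was negative at 14 of 15 probe sets, between -0.33 and 0.01. At 5 of the 15 the Ly49G2+ arrays all exceeded the Ly49C/I+ arrays, which was so at 8.47% of all probe sets. The authors' deposited table gives Il4ra a ratio of 0.914 with an unadjusted p of 0.0413, which did not pass when adjusted over its named rows. Il21r had log2 signals of 11.13, 11.16 and 11.09 in Ly49C/I+ cells against 11.26, 11.18 and 11.16 in Ly49G2+ cells. The groups overlapped narrowly, since Ly49C/I+ replicate 2 lay above Ly49G2+ replicate 3. Its log2 difference was -0.07 ± 0.047 (SE, limma adjusted p = 0.440), with a 95% interval from -0.17 to 0.04, and 9 of 10 probe sets were negative.

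Il7r encodes the IL-7 receptor alpha chain, which marks many T cells, other innate lymphoid cells and immature NK cells. Its log2 signal was 7.22, 7.36 and 7.19 in Ly49C/I+ cells against 7.44, 7.33 and 7.40 in Ly49G2+ cells. The groups overlapped, because Ly49C/I+ replicate 2 exceeded Ly49G2+ replicate 2. The log2 difference was -0.13 ± 0.057 (SE), with an unadjusted limma p of 0.0429 and an adjusted p of 0.198. The authors' deposited table gives Il7r a ratio of 0.869, a log2 difference of -0.20, so the averaged value is the smaller of the pair. The log2 difference of Il7r was -0.11 without Ly49G2+ replicate 1 and -0.16 without Ly49G2+ replicate 2, and neither passed. Of its 11 probe sets 8 were negative, and 1 lay below the lower quartile on every array.

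Markers of T cells were measured on the same arrays. Cd3e, a chain of the T cell receptor complex, had log2 signals of 8.37, 8.35 and 8.31 in Ly49C/I+ cells against 10.57, 10.59 and 10.55 in Ly49G2+ cells. Cd3d, Cd3g and Cd8a were also higher in Ly49G2+ cells (log2 differences -1.77, -0.99 and -0.72). Ubash3a, a regulator of T cell receptor signalling, was higher in Ly49C/I+ cells (0.42, limma adjusted p = 0.000501). The other 12 markers did not pass, among them Cd8b1 (-0.07), Lat (0.10) and Bcl11b (0.08). The summed signal of the 17 T cell markers ran from 13.64 to 13.68 on the log2 scale in Ly49C/I+ cells and from 13.91 to 13.96 in Ly49G2+ cells. Trat1 and Themis lay below the lower quartile on every array, and Cd4, Cd5 and Cd6 had log2 differences of 0.09, -0.08 and 0.10. The sort took CD3-negative cells. The part of T cell RNA in the Il6st and Il7r values was not tested. On such arrays, fewer cells carrying a transcript and less transcript per cell cannot be told apart.

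Stat3 encodes the transcription factor that gp130, IL-10 and IL-21 receptors activate. Its log2 signal was 11.40, 11.34 and 11.36 in Ly49C/I+ cells against 11.51, 11.49 and 11.49 in Ly49G2+ cells. The groups did not overlap and the Ly49G2+ arrays lay close together. The log2 difference was -0.13 ± 0.042 (SE), or 1.09-fold, with an unadjusted limma p of 0.0128 and an adjusted p of 0.0930. Of 30 probe sets 26 were lower in Ly49C/I+ cells, 2 were equal and 2 were higher. The authors' deposited table gives Stat3 a ratio of 0.936 with p = 0.00213, which became 0.0463 when adjusted over its named rows. Stat3 was the only gene of the 10 under 0.05 by that measure.

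The calls of Il4ra and Stat3 moved with the setting. Both passed with a variance trend and robust moderation (limma adjusted p = 0.0181 and 0.0122) and when genes under the median signal were left out before the test (0.0420 and 0.0383). The log2 difference of Stat3 was nearer 0 with the median of its probe sets (-0.07) and with the brightest probe set (-0.06), while that of Il4ra was -0.13 and -0.16. Without Ly49G2+ replicate 1 and without replicate 2 the log2 differences were -0.12 and -0.14 for Il4ra and -0.12 and -0.13 for Stat3, and none of these passed.

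**Figure D3:**
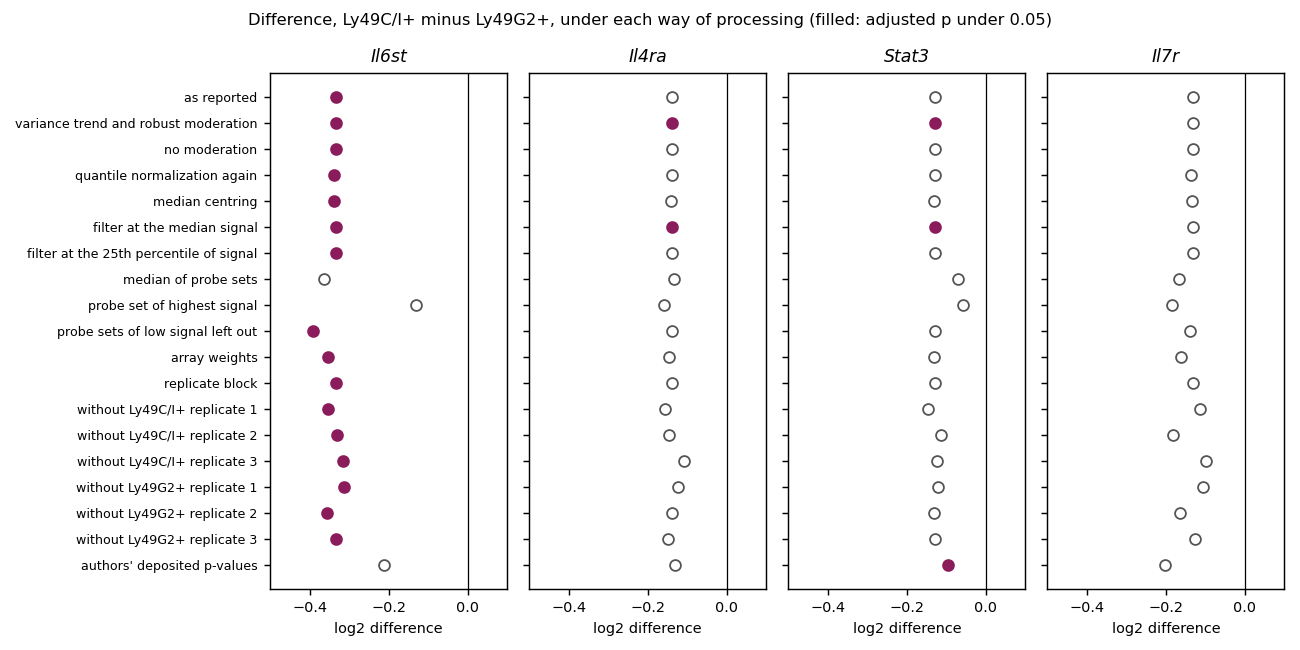
Log2 difference, Ly49C/I+ minus Ly49G2+ (x axis), of Il6st, Il4ra, Stat3 and Il7r under each way of processing (rows). Filled circles had an adjusted p under 0.05. All values of these genes are negative, and the Il6st value is nearest 0 with the brightest probe set (-0.13) and in the authors' deposited table (-0.21).

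Stat6, the transcription factor downstream of IL-4, had log2 signals of 10.89, 10.91 and 10.89 in Ly49C/I+ cells against 10.95, 10.92 and 10.90 in Ly49G2+ cells. The groups overlapped, and the log2 difference was -0.03 ± 0.042 (SE, limma adjusted p = 0.748), with a 95% interval from -0.12 to 0.06. Of its 26 probe sets, number 18 stood apart with log2 signals of 6.89, 8.06 and 6.66 in Ly49C/I+ cells against 6.24, 5.76 and 6.14 in Ly49G2+ cells, 1.16 apart on the log2 scale (limma adjusted p = 0.285 over all probe sets). The remaining 25 lay between -0.42 and 0.09. With number 18 included, the averaged value was nearer 0 than the median over the 26 probe sets, -0.06. The authors' deposited table gives Stat6 a log2 difference of -0.07 with an unadjusted p of 0.0206, which did not pass when adjusted over its named rows. Number 18 was singled out after its values were seen.

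Socs3, whose product inhibits signalling from gp130, had averaged log2 signals of 7.86, 8.01 and 7.93 in Ly49C/I+ cells against 7.91, 8.03 and 7.93 in Ly49G2+ cells. The groups overlapped and the log2 difference was -0.03 ± 0.054 (SE, limma adjusted p = 0.814), with a 95% interval from -0.15 to 0.09. The cluster with 3 probe sets had log2 signals of 8.90, 8.94 and 8.91 in Ly49C/I+ cells against 8.91, 9.06 and 8.98. The cluster with 1 probe set was dimmer, at 6.81, 7.07 and 6.94 against 6.92, 6.99 and 6.89. Neither cluster separated the subsets.

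**Figure D4:**
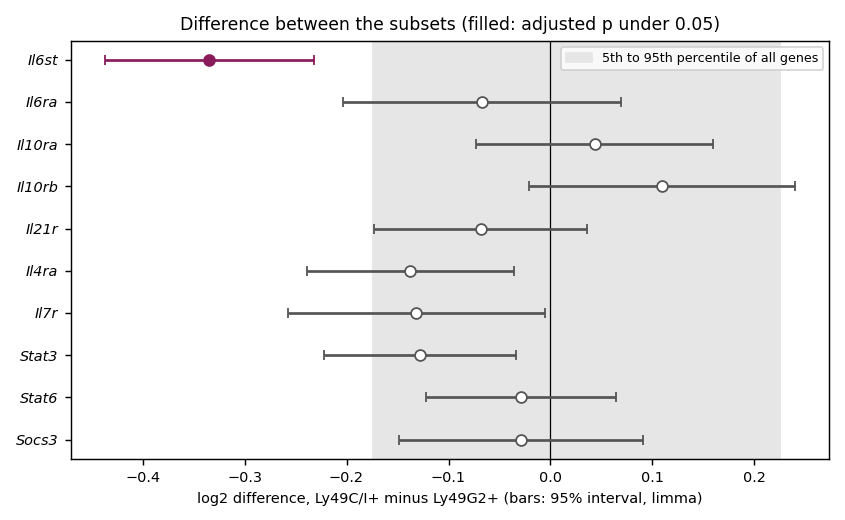
Log2 difference, Ly49C/I+ minus Ly49G2+ (x axis), of the 10 genes with 95% intervals from limma. The filled point, Il6st at -0.33, passed at an adjusted p under 0.05, and the grey band spans the 5th to the 95th percentile of all genes (-0.17 to 0.22), in which the other 9 estimates lie.

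Further genes of the pathway were taken from lists by role. Among 17 ligands, 1 passed in each direction, beside 6.16% of all genes toward Ly49C/I+ and 3.72% toward Ly49G2+ cells. Lif was higher in Ly49G2+ cells and Clcf1 in Ly49C/I+ cells. Lif encodes LIF, a cytokine that signals through gp130 and the LIF receptor chain. Its log2 signal was 7.38, 7.39 and 7.11 in Ly49C/I+ cells against 7.68, 7.73 and 7.95 in Ly49G2+ cells, without overlap. The log2 difference of Lif was -0.50 ± 0.089 (SE), or 1.41-fold, with limma adjusted p = 0.00627, and all 5 of its probe sets were lower in Ly49C/I+ cells. The call of Lif was lost without variance moderation (adjusted p = 0.136) and with the brightest probe set (limma adjusted p = 0.0976). Clcf1, another ligand of gp130 complexes, differed by 0.21 ± 0.054 on the log2 scale (SE, limma adjusted p = 0.0385), and this call ended whenever any 1 of the 6 arrays was left out (limma adjusted p from 0.0531 to 0.130). Of the 17 ligand genes, 6 lay below the lower quartile of probe sets on every array, and the median log2 difference was -0.04. The log2 signals of Il10 averaged 5.38 and 5.36, and those of Il21 5.52 and 5.59, in Ly49C/I+ and Ly49G2+ cells.

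None of 22 other receptor chains passed limma, 3 had an unadjusted limma p under 0.05, and 3 had an unadjusted p under 0.05 in the authors' deposited table. By lowest p they were led by Il9r (log2 difference -0.13, limma adjusted p = 0.140) and Ifngr2 (0.12, limma adjusted p = 0.179). The common gamma chain Il2rg, which IL-21, IL-4 and IL-7 receptors share, had mean log2 signals of 13.03 and 13.02. Lifr, the chain through which LIF engages gp130, was at 5.78 and 5.84, close to the lower quartile of probe sets. Of 9 Janus kinases and other STATs, 1 passed in each direction, beside 6.16% of all genes toward Ly49C/I+ and 3.72% toward Ly49G2+ cells. Stat2 was higher in Ly49C/I+ cells (log2 difference 0.40 ± 0.050, SE, limma adjusted p = 0.000964) and Stat5b in Ly49G2+ cells (-0.17 ± 0.043, SE, limma adjusted p = 0.0380). Stat2 acts downstream of interferon receptors, and Stat5b downstream of IL-2, IL-15 and IL-7. The Stat2 call failed in 3 of 18 alternatives. It ended with the median of its probe sets (limma adjusted p = 0.429), and the Stat2 value turned to -0.14 with the brightest. The Stat5b call ended when any 1 array was left out (limma adjusted p from 0.0545 to 0.128). None of the 4 Janus kinase genes passed, with log2 differences of -0.11 for Jak1, -0.11 for Jak2, 0.11 for Jak3 and 0.06 for Tyk2.

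Among 17 inhibitors of the pathway, 1 passed in each direction, where the shares of all genes were 6.16% toward Ly49C/I+ and 3.72% toward Ly49G2+ cells. Socs5 was higher in Ly49G2+ cells and Ptpn6 in Ly49C/I+ cells. Socs5 belongs to the same family as Socs3 and has been linked to inhibition of IL-4 signalling. Its log2 difference was -0.25 ± 0.053 (SE, limma adjusted p = 0.0173). The Socs5 call ended without Ly49C/I+ replicates 1 or 2 or Ly49G2+ replicate 1 (limma adjusted p up to 0.0685). Over all 18 alternatives it failed in 7 (limma or authors' adjusted p up to 0.157). Ptpn6 encodes the phosphatase SHP-1, which inhibitory Ly49 receptors also recruit. Its log2 difference was 0.20 ± 0.045 (SE, limma adjusted p = 0.0209). The Ptpn6 call ended without Ly49C/I+ replicates 1 or 3 or Ly49G2+ replicates 1 or 3 (limma adjusted p up to 0.0802). Over all 18 alternatives it failed in 8 (limma or authors' adjusted p up to 0.628), with log2 differences down to 0.08. Socs1 and Cish, which respond to STAT5, had log2 differences of 0.15 and 0.10 and did not pass.

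Of 22 genes known to respond to STAT3, 2 were higher in each subset, beside 6.16% of all genes toward Ly49C/I+ and 3.72% toward Ly49G2+ cells, and the median log2 difference was -0.01, as over all genes. With a variance trend and robust moderation 4 passed toward Ly49G2+ cells, while such calls over all genes went from 797 to 1014. With the brightest probe sets 0 of the 22 passed in either direction, and of all genes 276 passed toward Ly49C/I+ and 133 toward Ly49G2+ cells. Fos (log2 difference 0.45) and Myc (0.30) were higher in Ly49C/I+ cells, with limma adjusted p = 0.000513 and 0.00392. The Fos call ended with its brightest probe set (limma adjusted p = 0.0860), and the Myc call ended without moderation (0.0518), with the median of the probe sets (0.0810) and with the brightest (0.142). Hif1a, a regulator of the response to low oxygen, and Bcl2l1, which encodes the survival protein Bcl-xL, were higher in Ly49G2+ cells with log2 differences of -0.36 and -0.18 (limma adjusted p = 0.00107 and 0.0227). The Hif1a call ended with the median of its probe sets (limma adjusted p = 0.0604) and with the brightest, where the log2 difference was -0.05 (limma adjusted p = 0.720). The Bcl2l1 call ended without Ly49C/I+ replicates 2 or 3 or Ly49G2+ replicates 1 or 3 (limma adjusted p up to 0.0807). Over all 18 alternatives it failed in 8 (limma or authors' adjusted p up to 0.568). All 4 genes answer to other pathways as well. Of 14 measured genes known to respond to STAT6, of which Il4ra is 1, 7 lay below the lower quartile of probe sets on every array. Only Chil3 of the 14 passed (log2 difference 0.25, limma adjusted p = 0.0153), beside 9.88% of all genes in either direction. Its mean log2 signals were 5.12 in Ly49C/I+ and 4.88 in Ly49G2+ cells, below that quartile. The call of Chil3 ended without Ly49C/I+ replicates 1 or 3 or Ly49G2+ replicate 1, and it failed in 7 of 15 alternatives. Next came Ppargc1b, with a log2 difference of 0.15 (limma adjusted p = 0.0937).

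The list of genes found in lymphocytes that carry the IL-7 receptor held 15 genes, of which 5 were higher in Ly49G2+ and 1 in Ly49C/I+ cells, with a median log2 difference of -0.09. The shares of all genes were 3.72% and 6.16%. The 5 became 7 with a variance trend, 3 with the median of the probe sets, 1 without moderation and 0 with the brightest probe sets. Calls toward Ly49G2+ cells over all genes, 797 as reported, became 1014, 219, 344 and 133 in these settings, in that order. As reported, the 5 toward Ly49G2+ cells were the chemokine receptor Cxcr3 (-0.41), the costimulatory receptor Cd27 (-0.31), the egress receptor S1pr1 (-0.33), the stem cell factor receptor Kit (-0.20) and the transcription factor Rora (-0.17). Toward Ly49C/I+ cells it was Cxcr6, a chemokine receptor of resident lymphocytes (0.62, limma adjusted p = 0.000102). The limma adjusted p was 0.00277 for Cxcr3, which has 1 probe set, 0.00290 for Cd27, 0.0117 for S1pr1, 0.0179 for Kit and 0.0474 for Rora. The Rora call ended when any 1 array was left out and its log2 difference was 0.0067 with the brightest probe set. The Kit call ended without Ly49C/I+ replicates 2 or 3 or Ly49G2+ replicates 1 or 3. Over all 18 alternatives Kit failed in 7 (limma or authors' adjusted p up to 0.288). The S1pr1 call ended without Ly49C/I+ replicate 2. S1pr1 failed in 6 of 16 alternatives, among them the median of its probe sets (limma adjusted p = 0.270), and the log2 difference from the authors' deposited table was -0.10. All of its Ly49C/I+ signals lay below the lower quartile of probe sets, the highest at 5.67, against 5.78, 6.02 and 5.92 in Ly49G2+ cells. The Cxcr3 call failed in 3 of 18 alternatives, with its highest adjusted p, 0.0795, without moderation. That of Cd27 ended only with the brightest probe set (limma adjusted p = 0.0629). Kit and Rora are also among the 3 markers of other innate lymphoid cells that were higher in Ly49G2+ cells, with Il1rl1 (log2 difference -0.21, limma adjusted p = 0.0490). Mean log2 signals of Il1rl1 were 5.60 in Ly49C/I+ and 5.81 in Ly49G2+ cells, close to the lower quartile of probe sets. The summed signal of those 10 markers ran from 12.35 to 12.40 in Ly49C/I+ cells and from 12.49 to 12.53 in Ly49G2+ cells on the log2 scale, Il23r and Il5 were below the lower quartile on every array, and the part of such cells in the values was not tested.

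**Figure D5:**
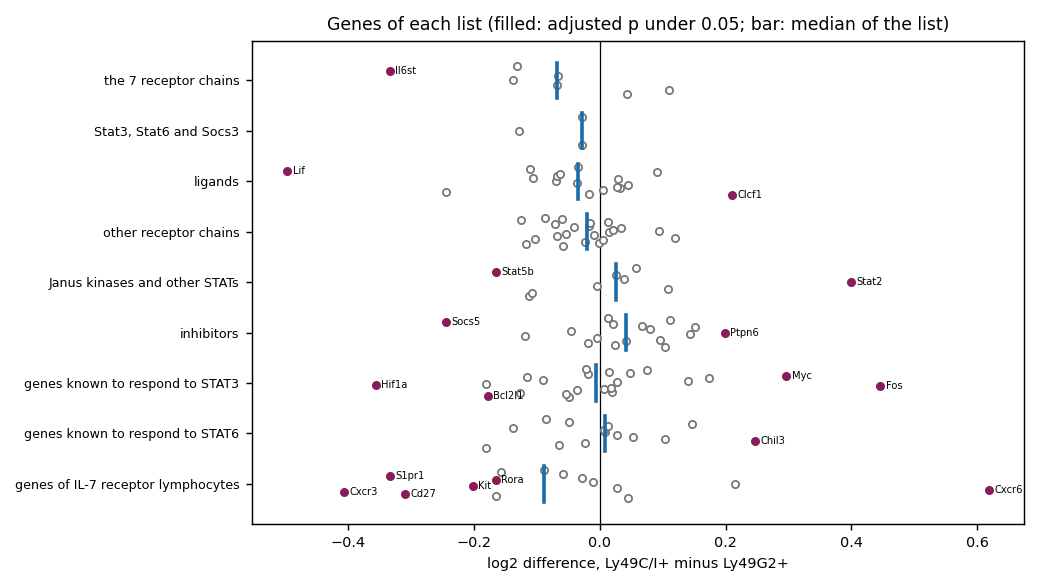
Log2 difference, Ly49C/I+ minus Ly49G2+ (x axis), of every measured gene in each list (rows). Filled circles passed at an adjusted p under 0.05 and are named, and blue bars are list medians, which lie between -0.09 and 0.04.

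Without Ly49G2+ replicate 1 and without replicate 2, in that order, the log2 differences were -0.55 and -0.53 for Lif, 0.40 and 0.42 for Stat2, and -0.34 and -0.38 for Hif1a. They were 0.43 and 0.44 for Fos and 0.30 and 0.27 for Myc. For the receptors they were -0.43 and -0.37 for Cxcr3, -0.32 and -0.32 for Cd27, and 0.63 and 0.59 for Cxcr6. These 8 genes passed limma in each case.

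The genes of these lists whose values followed Il6st most closely over the 6 arrays were Kit (Pearson r = 0.989) and Bcl2l1 (r = 0.986), out of 121 compared. The 6 arrays form 2 groups of 3, so that any gene with a clear difference between the subsets has a high r here.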

How the data were processed

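The authors deposited 1 log2 value per exon probe set and array. The submitters' processing notes name RMA and Partek, with versions and settings not given in the sources used here. Each array received cDNA amplified from 100 ng of RNA, per the labels' protocols. The authors also deposited an ANOVA p-value, a ratio (Ly49C/I+ over Ly49G2+) and log2 group means per transcript cluster. The signed score in the fold column, per the file headers, and the other ANOVA statistics were not used.

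The probe sets that follow a cluster's ID in an unbroken run were assigned to it (241383 of 241576), and log2 values were averaged per cluster and then per gene. Run means correlated with the authors' means at r = 0.990 across clusters, which are not independent. Symbols were updated through RefSeq accessions of GRCm38.p6. Differences are Ly49C/I+ minus Ly49G2+, tested with limma 3.58.1 (R 4.3.3; lmFit and eBayes, two-sided, no filter) over all genes and, separately, over all probe sets. Intervals are at 95%. Arrays give no read depth. The number of arrays, 3 per group, limits the precision. Python 3.11.15, pandas 2.3.3, numpy 2.4.6, scipy 1.17.1 and matplotlib 3.10.9 were used. The test was tried on simulated data.

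The genes, lists and tests were chosen with earlier results of these data known. The text names the 10 genes, the passing genes of each list (at most 8), the 2 of lowest p where fewer pass, and the 2 list genes most like a passing gene. Any further gene was picked with its values in view. Titles give groups and replicate numbers. Alternatives changed the moderation, normalization, filter, summary of probe sets, array weights, replicate block and arrays used.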

Additional observations from a re-analysis of the deposited data

How the results depend on the processing

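Over 179 values of the 10 genes under 18 alternatives, 169 kept their direction and their side of the threshold. As 9 of the 10 genes did not pass as reported, most of these values kept their side by not passing again. Il6st, which passed as reported, failed in 3 of the 18. The number of the 10 genes higher in Ly49G2+ cells was 1 as reported, 3 with a variance trend and robust moderation and 3 with genes under the median signal left out (Il4ra and Stat3 added), and 0 with the median of the probe sets and 0 with the brightest probe set (Il6st lost). Calls over all genes moved too: 1321 toward Ly49C/I+ and 797 toward Ly49G2+ cells became 1619 and 1014 with the trend, 1606 and 941 with the filter, 460 and 219 with the median, and 276 and 133 with the brightest probe set. The authors' deposited p-values gave 1, which was Stat3 and not Il6st. It was 1 to 1 with 1 array left out, and 0 of the 138 probe sets passed under every alternative run on them. The log2 difference of Socs3 ran from -0.0672 to 0.0078 with 1 array left out, turning to 0.0078 without Ly49C/I+ replicate 1 and to 0.005 without Ly49G2+ replicate 2. That of Stat2 turned to -0.14 and that of Rora to 0.0067 with the brightest probe set. The cause was not tested. Same-numbered arrays did not deviate together (r = -0.076, -0.186 and -0.046), so the numbers were not taken as pairs. With the replicate block the count of the 10 genes higher in Ly49G2+ cells was 1 and the log2 difference of Il6st -0.33, and the calls of Bcl2l1, Clcf1, Kit, Ptpn6, Rora and Stat5b ended. Signal near or below the lower quartile limits what can be said of Chil3, S1pr1, Il1rl1, Ighm, Ly6g, Lifr and the dim ligands.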

Other observations

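Several of these genes lie beside relatives in the RefSeq annotation. Stat3 neighbours Stat5a, which neighbours Stat5b. Stat5a had a log2 difference of 0.03 (limma adjusted p = 0.835), between -0.13 for Stat3, which did not pass, and -0.17 for Stat5b, which did. Il10rb lies between Ifnar2 and Ifnar1, the chains of the type I interferon receptor, whose log2 differences were 0.01 and -0.02 with limma adjusted p = 0.966 and 0.855.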
